A study of Homo sapiens with 4 samples.

Results

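The members are 10 genes of the pathway by which cyclin-dependent kinases release E2F from the retinoblastoma protein: CCND1, CCNE1, CDK4, CDK6, CDKN1A, RB1, RBL1, E2F1, E2F3 and E2F8. They were given as a list and found by symbol among 20033 protein-coding genes of RefSeq on GRCh38. CUT&Tag, which maps where an antibody target sits on chromatin by sequencing the DNA around it, had been run on 22RV1, a human prostate cancer cell line. All 4 libraries came from this line, 1 per group. An inhibitor pair consisted of cells under PD0332991 (palbociclib, which inhibits CDK4 and CDK6) and their control, and an siRNA pair of cells with RB knocked down by siRNA and their control. The labels call the assay CUT&Tag, while their protocol describes chromatin fixed with formaldehyde and sonicated, steps usual in chromatin immunoprecipitation, so the assay is given here as labelled. The antibody target, the dose and time of PD0332991 and the sequence of the siRNA were not given in the sources used here. With 1 library per group no difference below has a replicate check, no p-value was computed, and all intervals cover counting error only.

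D-type cyclins bind CDK4 and CDK6, and the active kinases phosphorylate RB. RB and its relatives, the pocket proteins, hold E2F transcription factors in check, and their phosphorylation frees E2F to switch on genes of S phase, among them the gene of cyclin E. CDKN1A encodes p21, an inhibitor of cyclin-CDK complexes, and several genes of the pathway, such as E2F1 and CCNE1, are themselves known targets of E2F.

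Each deposited list holds intervals with 1 summit each, the position with the most fragments in that interval. The intervals of a list covered 3.03 to 3.06 Gb. A −log10 q (p adjusted for many tests) above 0 was given to 410 of 10061 intervals in the inhibitor control and 87 of 3304 under PD0332991. It was given to 205 of 10759 in the siRNA control and 41 of 2632 after RB siRNA. A listed summit is thus the highest position of its interval and need not be a site of enrichment. Fragments at a summit were recovered from the authors' fold and −log10 p and expressed per 1000000 fragments of the library (FPM). The recovered library totals were 2458774 fragments for the inhibitor control, 1909343 for PD0332991, 3479671 for the siRNA control and 2423283 for RB siRNA, and 1 fragment was worth between 0.287 and 0.524 FPM. Spread evenly, the fragments would have given 0.129 to 0.225 per position. Intervals are long, with medians of 180 to 718 kb, so a gene without a summit of its own can lie under an interval whose summit is elsewhere. The level of that summit is then the most that the part of the gene inside the interval can have had. A gap between intervals has no such limit. Of the prostate epithelial marker genes, FOXA1 had a summit within 1000 bp of an end in every library but the inhibitor control, and KLK3, HOXB13, TMPRSS2, KRT8 and KRT18 had none. Markers of blood, endothelium and liver had none either, 0 of 4 in each library.

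Members had a summit within 1000 bp of a gene end in 13 of 40 combinations of gene and library. In the inhibitor control 5 of 10 members had one (CDK4, CCND1, CCNE1, RBL1 and E2F8), where 16.8% of all protein-coding genes did. Under PD0332991 only E2F3 did, 1 of 10 against 7.73% of all genes. In the siRNA control 3 of 10 did (CDK4, CCND1 and E2F3) against 17.3%, and after RB siRNA 4 of 10 (CDK4, CCND1, CCNE1 and E2F8) against 6.63%. Median interval widths were 189 kb in the inhibitor control, 557 kb under PD0332991, 180 kb in the siRNA control and 718 kb after RB siRNA. Whether width bears on these counts was not tested. No member had a gene-end summit in all 4 libraries, and CDK6, RB1, E2F1 and CDKN1A had none in any. Of all protein-coding genes 2.44% had one in all 4 libraries and 72.8% had none in any. The median level at the members' summits was 9.76 FPM in the inhibitor control, where it was 4.88 over all 2852 gene-end summits. The single summit under PD0332991 had 5.76 FPM against a median of 8.38. In the siRNA control it was 5.46 against 3.74 over 2952, and after RB siRNA 7.22 against 7.43 over 1107. The members' gene-end summits had the commonest −log10 p of their list and an authors' fold of 1.03 to 1.40. Exceptions were those of CDK4 in the inhibitor control and the siRNA control.

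**Figure D1:**
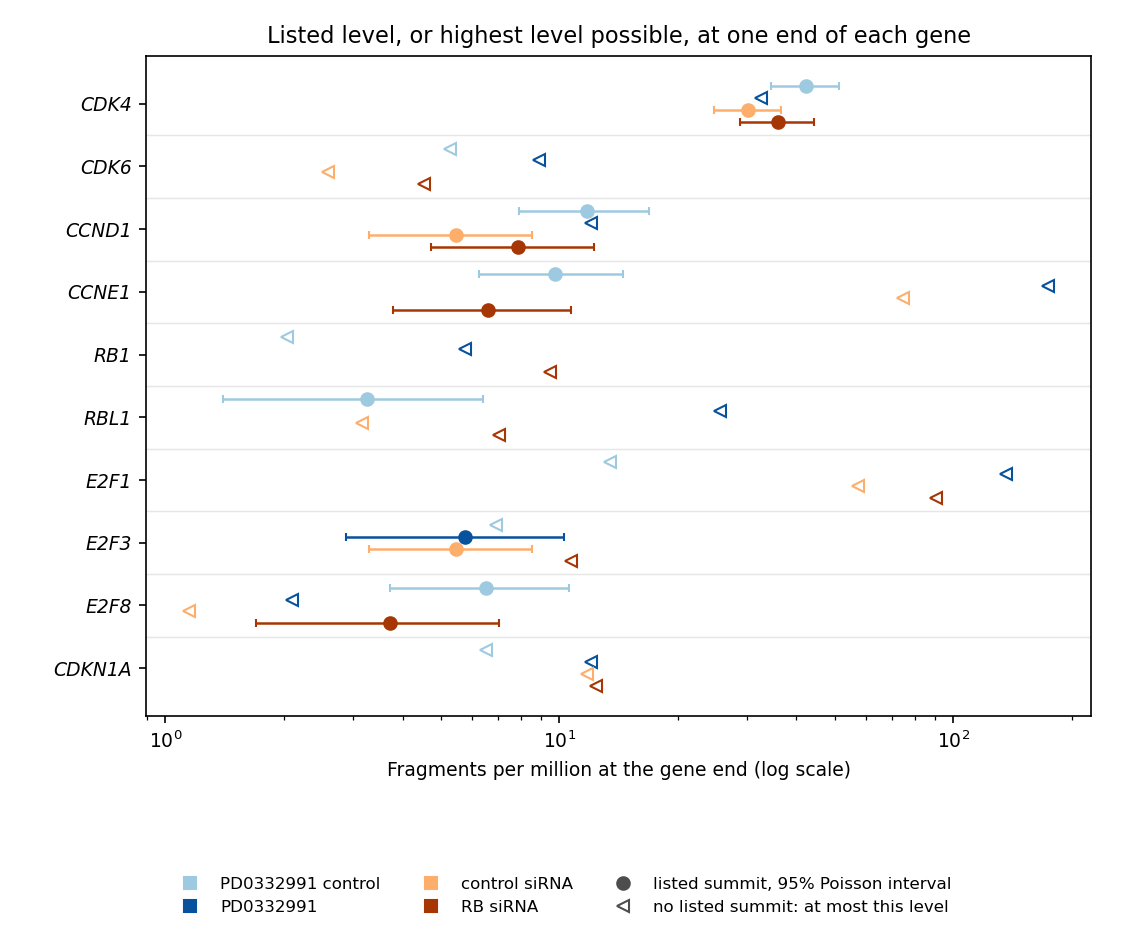
Level at 1 end of each gene in FPM (log axis), for the 4 libraries by colour. Filled circles are listed summits with exact 95% Poisson intervals, and open triangles mark the highest level possible where the list shows a summit elsewhere; RB1 has no mark in the siRNA control, whose list has a gap there. CDK4 stands highest, from 30.2 to 42.3 FPM where it was listed.

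The RefSeq promoter table (GRCh38.p14) held 8 of the 10 members, with 10 starts in all, of which that of RB1 lies deep inside the gene; CCND1 and E2F8 were not matched. The 7 promoters below are shown because a summit lay in or beside them (CDK4, CCNE1, RBL1, the second start of CDK6 and both starts of E2F3), or because the promoter holds an E2F motif and had no listed summit (E2F1). Each runs 5′ to 3′ along the gene, from 250 bases before the start to 30 after it. They are CDK4 at chr12:57752281-57752560 (minus strand), the second start of CDK6 at chr7:92833930-92834209 (minus), CCNE1 at chr19:29811741-29812020 (plus), RBL1 at chr20:37095968-37096247 (minus), E2F1 at chr20:33686356-33686635 (minus), and E2F3 at chr6:20401629-20401908 for the first start and chr6:20403364-20403643 for the second (plus). Capitals mark matches on either strand to the motifs of E2F (TTTGGCGC, TTTCCCGC, TTTCGCGC), ETS factors (CCGGAAGT and its core CCGGAA), SP and KLF factors (GGGCGG), NF-Y (CCAAT), the cell cycle element CHR (TTTGAA or else TTCGAA) and the E-box (CACGTG), the last added after the CDK4 sequence had been seen. CCGGAA lies within CCGGAAGT, and no other listed motif contains another.
CDK4: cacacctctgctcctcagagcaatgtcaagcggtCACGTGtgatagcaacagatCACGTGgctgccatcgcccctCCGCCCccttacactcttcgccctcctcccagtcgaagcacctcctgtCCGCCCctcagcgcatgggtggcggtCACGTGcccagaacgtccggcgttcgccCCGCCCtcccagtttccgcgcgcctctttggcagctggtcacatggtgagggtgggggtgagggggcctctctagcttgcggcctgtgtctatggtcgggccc
CDK6, the second start: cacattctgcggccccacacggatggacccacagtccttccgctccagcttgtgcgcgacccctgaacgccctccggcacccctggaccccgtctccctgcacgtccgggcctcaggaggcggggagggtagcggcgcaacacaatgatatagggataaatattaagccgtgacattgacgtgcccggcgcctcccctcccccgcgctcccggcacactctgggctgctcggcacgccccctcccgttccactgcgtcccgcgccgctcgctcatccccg
CCNE1: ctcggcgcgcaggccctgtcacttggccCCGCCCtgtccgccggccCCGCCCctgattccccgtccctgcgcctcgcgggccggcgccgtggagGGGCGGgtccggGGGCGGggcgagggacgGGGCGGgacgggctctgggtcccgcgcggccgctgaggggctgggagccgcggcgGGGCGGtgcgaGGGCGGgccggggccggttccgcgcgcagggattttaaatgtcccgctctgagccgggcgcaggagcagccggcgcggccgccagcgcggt
RBL1: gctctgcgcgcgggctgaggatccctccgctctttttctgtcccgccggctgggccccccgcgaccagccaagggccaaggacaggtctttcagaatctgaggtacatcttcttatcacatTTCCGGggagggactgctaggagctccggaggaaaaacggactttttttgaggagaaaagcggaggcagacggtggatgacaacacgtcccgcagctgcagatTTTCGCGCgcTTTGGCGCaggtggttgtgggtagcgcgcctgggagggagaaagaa
E2F1: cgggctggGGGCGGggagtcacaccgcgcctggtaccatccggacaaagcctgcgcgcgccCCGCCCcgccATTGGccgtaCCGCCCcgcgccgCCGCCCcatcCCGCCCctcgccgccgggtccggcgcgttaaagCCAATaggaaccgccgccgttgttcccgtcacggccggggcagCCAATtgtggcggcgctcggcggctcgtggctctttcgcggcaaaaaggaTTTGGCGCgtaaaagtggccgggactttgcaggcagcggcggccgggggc
E2F3, the first start: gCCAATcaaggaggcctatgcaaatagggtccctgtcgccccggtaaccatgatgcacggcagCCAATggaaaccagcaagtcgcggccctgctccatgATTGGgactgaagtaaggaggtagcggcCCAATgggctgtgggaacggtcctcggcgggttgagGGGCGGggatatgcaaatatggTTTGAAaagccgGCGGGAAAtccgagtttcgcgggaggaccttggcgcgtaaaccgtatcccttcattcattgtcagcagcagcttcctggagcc
E2F3, the second start: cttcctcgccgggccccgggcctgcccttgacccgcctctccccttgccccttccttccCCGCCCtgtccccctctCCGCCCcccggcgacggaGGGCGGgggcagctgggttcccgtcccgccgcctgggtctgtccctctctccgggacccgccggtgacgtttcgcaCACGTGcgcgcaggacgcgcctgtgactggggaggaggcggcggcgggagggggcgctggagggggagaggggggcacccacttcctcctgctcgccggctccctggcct

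A match to one of the 3 E2F motifs was found at RBL1 (TTTCGCGC and TTTGGCGC, starting 26 and 16 bases before the start of the gene), at E2F1 (TTTGGCGC, 20 bases before) and at the first start of E2F3 (GCGGGAAA, the reverse complement of TTTCCCGC, 53 bases before). Such a match stood in 2.61% of all 35116 windows of this length. CDK4 had 3 E-boxes, starting 216, 196 and 101 bases before its start, a number reached by 0.0911% of windows, while at least 1 stood in 6.94%. CCNE1 had 7 matches to GGGCGG, a number reached by 1.32% of windows, where 44.1% had at least 1, and its GC content was 81.4% against a median of 58.2% over all windows. The first start of E2F3 had 4 CCAAT motifs and E2F1 had 3, and 3 or more stood in 3.12% of windows. The ETS core CCGGAA stood at RBL1 and CDKN1A and in 16.6% of all windows, and CCGGAAGT, found in 4.06%, at no member. The second start of CDK6 had no match to any listed motif. These are matches of letters, and nothing was measured that ties them to the summits.

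Among the cyclins, CCND1, which encodes cyclin D1, carried its summit at the far end of the gene and not at its start. The summit lay beyond the higher coordinate of the gene (chr11:69641156-69654474) by 118 bp in the inhibitor control, 294 bp in its siRNA counterpart and 263 bp with RB knocked down. CCND1 is known to be transcribed toward rising coordinates, so this is its 3′ end; no other gene of the RefSeq table had an end within 1000 bp of it. The level there was 11.8 FPM (95% Poisson interval 7.90 to 16.9, 29 fragments) in the inhibitor control, 7.84 (4.72 to 12.2, 19 fragments) after RB siRNA and 5.46 (3.29 to 8.53, 19 fragments) in the siRNA control. The start of CCND1, 13436 bp from the summit of the inhibitor control, lay in the same intervals and had at most these levels. Under PD0332991 the 3′ end lay in an interval whose summit was 616 kb away at PPFIA1, so it had at most 12.0 FPM, which leaves a level as high as that of the control possible, and the start lay in another interval with at most 28.3.

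CCNE1, which encodes cyclin E1, had a summit just before its start in a pair of libraries and a far higher one downstream in all 4. At the start the summit lay 183 bp upstream in the inhibitor control, with 9.76 FPM (6.25 to 14.5, 24 fragments), and 170 bp upstream after RB siRNA, with 6.60 (3.77 to 10.7, 16 fragments). Both positions fall inside the promoter printed above. The downstream summit stood about 20.5 kb past the 3′ end (at 29844858 of chromosome 19 under PD0332991) and had 132 FPM in the inhibitor control, 174 under PD0332991, 125 after RB siRNA and 74.7 in the siRNA control. The nearest protein-coding gene on its other side was URI1, 78795 bp away, and no RefSeq gene had an end within 1000 bp of it. In the libraries of PD0332991 and control siRNA this summit shared an interval with the start of CCNE1 and would have hidden one there. The downstream summit had a log2 ratio of 0.74 (95% counting interval 0.49 to 0.98) after RB siRNA, above the median of 0.45 over the 749 shared summits, of which 7.61% lay above it beyond counting error. Under PD0332991 the ratio of 0.40 (0.18 to 0.62) did not exclude the median of 0.20. Between the controls, the inhibitor control against that of the siRNA, the ratio there was 0.82 (0.58 to 1.06), which did not exclude the median of 0.59. The RB siRNA ratio thus stood 0.29 above its median, and that of the controls 0.23 above theirs.

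Of the kinases, CDK4 had the highest summit among the members. It lay 168 bp before the start in the inhibitor control (position 57752478) and 162 bp before it in both siRNA libraries (57752472). A match to GGGCGG, written CCGCCC, spans 175 to 170 bases before the start. It is closer to these positions than the E-boxes on either side, which start 196 and 101 bases before the start. The level was 42.3 FPM (34.6 to 51.3, 104 fragments) in the inhibitor control, 35.9 (28.8 to 44.3, 87 fragments) after RB siRNA and 30.2 (24.7 to 36.5, 105 fragments) in the siRNA control. These intervals overlap one another, and CDK4 ranked 117 of 2852, 90 of 1107 and 89 of 2952 gene-end summits by level, in that order. The authors' fold there was 2.46, 1.27 and 2.09. In these libraries 1 fragment added about 0.0141, 0.00315 and 0.0104 to the fold, so folds cannot be compared between libraries. Under PD0332991 the interval over CDK4 was 2.73 Mb wide, and its summit stood 227 kb away within 1000 bp of ends of DDIT3 and MBD6 with 32.5 FPM (62 fragments), the most that CDK4 can have had.

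That bound was lower than the level of the inhibitor control. The log2 ratio at CDK4 was at most -0.38 (-0.86 to 0.09), and this interval excluded the median of 0.20 over the 887 summits shared by PD0332991 and its control, but not 0. Of 852 gene-end summits of the inhibitor control with at least 5 FPM and no partner under PD0332991, 8 (0.939%) stood above the bound beyond counting error in this way, CDK4 and E2F8 among them. Both entered that comparison through a summit in the control with none under PD0332991, so the direction was set in part by the choice of summits, and the ratios are given as a description of these libraries. In the opposite direction 2.34% of the unpaired gene-end summits of PD0332991 did, and no member was among them. After RB siRNA the ratio at CDK4 was 0.25 (-0.18 to 0.67), and relative to the median of 0.45 it was -0.20, so its sign depends on the scaling. Between the controls it was 0.49 (0.08 to 0.89) against a median of 0.59. Neither of these last values lay beyond counting error.

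**Figure D2:**
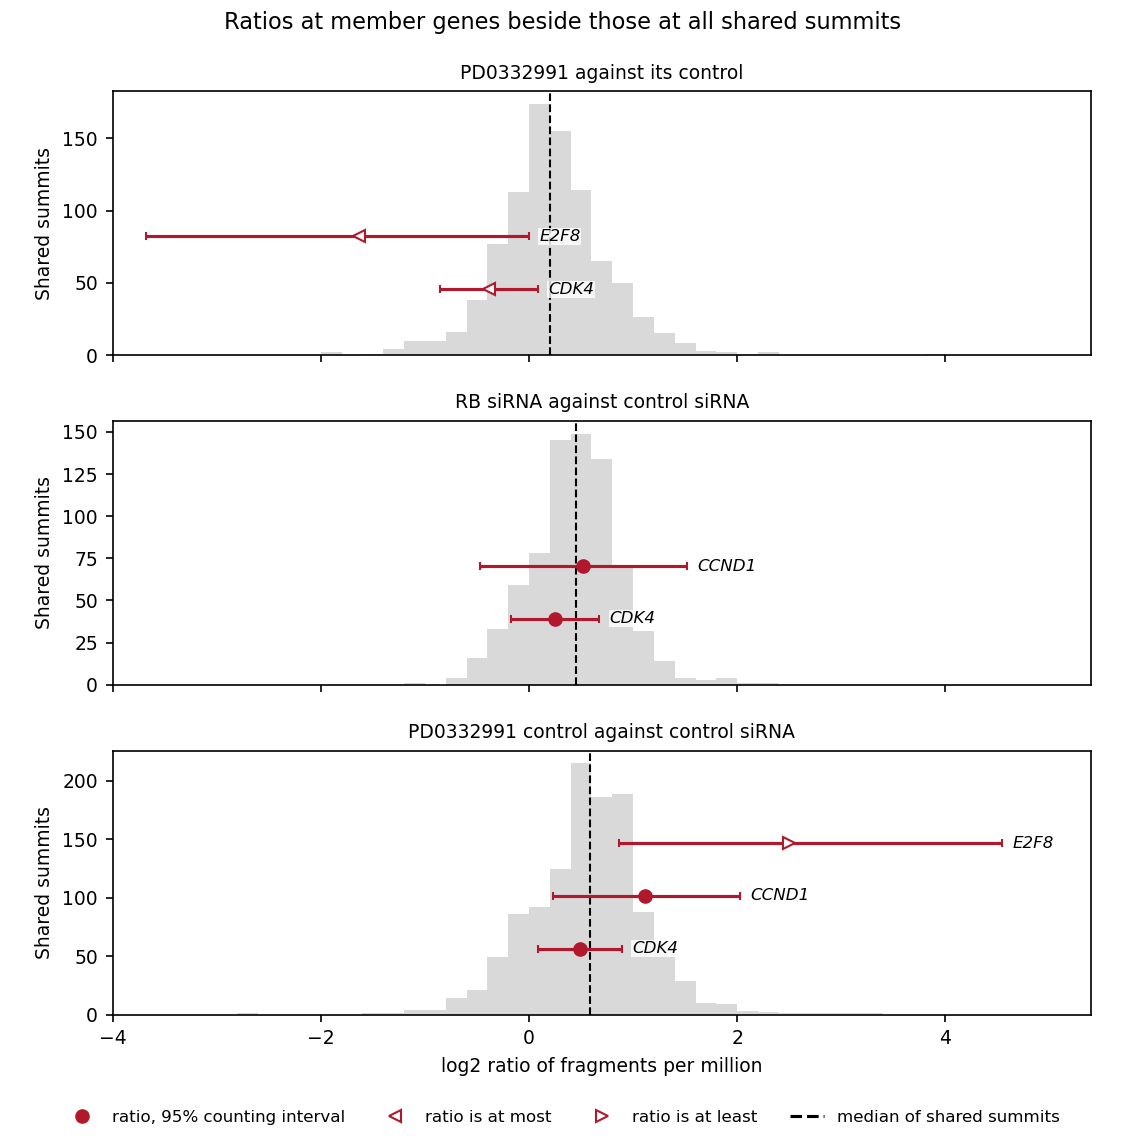
Number of summits shared by a pair of libraries of 5 FPM or more by geometric mean (grey bars, vertical axis) by log2 ratio of FPM (horizontal axis), with the median as a dashed line. Red symbols show members with 95% counting intervals, drawn at arbitrary heights: circles are ratios, left triangles ratios that are at most, and right triangles ratios that are at least, the value shown. At-most ratios are drawn only where their interval lies below the median, and at-least ratios only where it lies above. Bounds of other members are left out. CDK4 and E2F8, the members drawn in the top panel, lie left of the median there.

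CDK6, the other target of PD0332991, had no summit within 1000 bp of a gene end. It had a low one at its second annotated start, inside the gene, in the siRNA libraries. The summit stood 220 bp after that start with 2.59 FPM (1.18 to 4.91, 9 fragments) in the siRNA control and 28 bp before it with 4.54 (2.27 to 8.12, 11 fragments) after RB siRNA, and the Poisson intervals overlap. In the inhibitor control CDK6 lay in an interval with its summit outside the gene and had at most 5.29 FPM. Under PD0332991 the summit was at CYP51A1, 470 kb off, and the bound was 8.90 FPM. A summit of the size seen in the siRNA libraries could thus be present and unlisted in the inhibitor pair.

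CDKN1A, the gene of p21, had a summit inside the gene at the same place in a pair of libraries that share no treatment. It lay 1620 bp after the promoter start at 36678714 of chromosome 6 in the inhibitor control and 1621 bp after it following RB siRNA. The level was 6.51 FPM (3.72 to 10.6, 16 fragments) in the former and 12.4 (8.35 to 17.7, 30 fragments) in the latter. Under PD0332991 and in the siRNA control the interval had its summit 483 kb off at PIM1, a kinase gene, and CDKN1A had at most 12.0 and 11.8 FPM. The log2 ratio at this place was at least 0.07 (-0.66 to 0.79) for RB siRNA and at most 0.89 (-0.09 to 1.91) for PD0332991. The first bound was under its median of 0.45 and the second above its median of 0.20. Neither bound could therefore show whether the level differed.

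Of the pocket proteins, RB1 had no summit at an end, and its limits differed between libraries. In the inhibitor control the whole gene (chr13:48303751-48481890) lay under 1 interval with a summit of 2.03 FPM (5 fragments) inside it, so that no position of RB1 had more. In the siRNA control the intervals covered 75.5% of the gene, and a gap held its start, for which no summit sets a limit. The intervals that had their summits inside the gene had 1.15 and 0.287 FPM, which are 4 fragments and 1, and that over its 3′ end had 9.20 FPM at KPNA3, 1.31 Mb off. Under PD0332991 and after RB siRNA the summit was 495 kb off, inside FNDC3A, and RB1 had at most 5.76 and 9.49 FPM. The siRNA acts on RNA, so these values do not check the knockdown.

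RBL1, which encodes the pocket protein p107, had a gene-end summit in the inhibitor control alone, 1 bp inside its start and next to the E2F motifs of the printed promoter, with 3.25 FPM (1.40 to 6.41, 8 fragments). In the siRNA control the interval over the start had its summit 83.2 kb off within 1000 bp of ends of RPN2 and MROH8 and allowed at most 3.16 FPM, and after RB siRNA at most 7.02. Another interval of the siRNA control had its summit inside RBL1, 3209 bp from the 3′ end, with 0.862 FPM (3 fragments). Under PD0332991 the bound was 25.7 FPM. The bounds do not separate any of these libraries from the level of the inhibitor control.

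**Figure D3:**
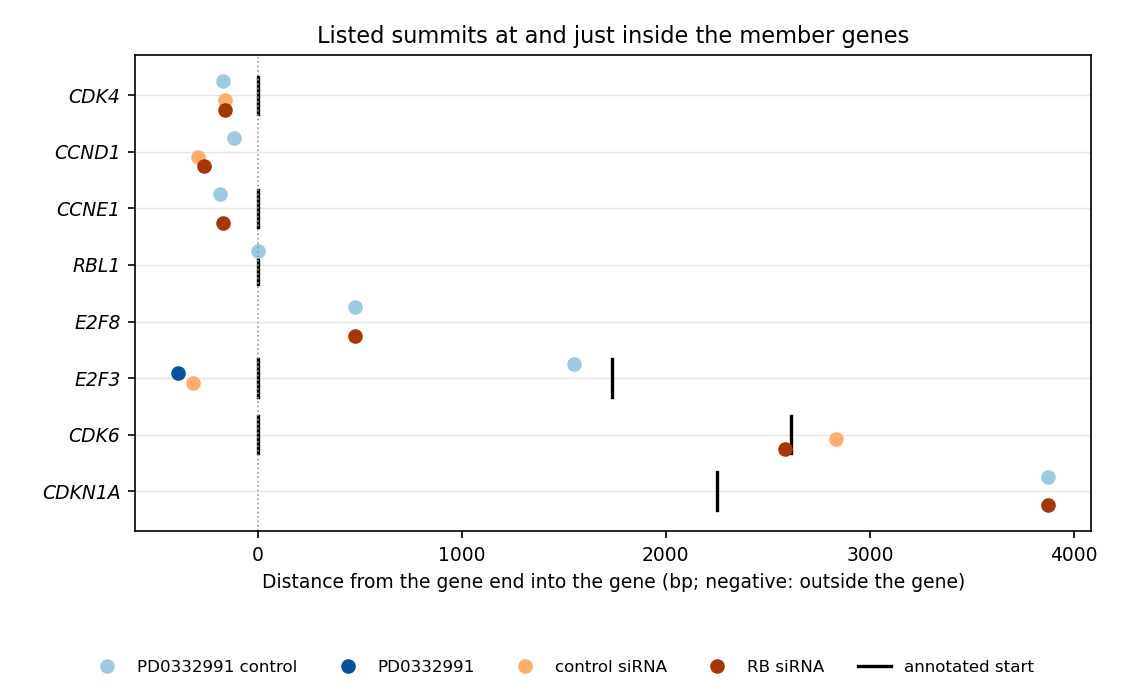
Distance of listed summits from 1 end of 8 members into the gene (bp, negative outside the gene), with libraries by colour and annotated starts as black bars; the end shown is the 5′ end except for CCND1, where it is the 3′ end. CDK4, CCNE1 and E2F8 summits lie at nearly the same place between libraries, and E2F3 summits fall at different starts.

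The E2F genes differed in what the lists show of them. E2F1, the activator whose promoter carries the motif TTTGGCGC, had no summit at its ends, and its limits were loose. In the inhibitor control the interval had its summit outside the gene and allowed at most 13.4 FPM at E2F1. In the other libraries the summit at RALY, 307 kb off, set bounds of 136 FPM under PD0332991, 90.4 after RB siRNA and 57.5 in the siRNA control. A summit as high as that of CDK4 would have been hidden in those 3 libraries.

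E2F3, another activator, has a pair of annotated starts, and summits were listed at different ones. Under PD0332991 the summit lay 388 bp before the first start, with 5.76 FPM (2.88 to 10.3, 11 fragments), and in the siRNA control 319 bp before it, with 5.46 (3.29 to 8.53, 19 fragments). In the inhibitor control it lay 187 bp before the second start, inside the second E2F3 sequence above, with 6.91 FPM (4.03 to 11.1, 17 fragments). Each of these intervals covers both starts, so the unlisted start can have had up to the listed level, and the difference in position does not show a change of start. The protein-coding gene LOC124901482 has its start between the E2F3 starts, within 1000 bp of the summit of the inhibitor control and with its other end within 1000 bp of the others. After RB siRNA the interval had its summit 2.80 Mb off at FAM8A1, and E2F3 had at most 10.7 FPM.

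E2F8, an atypical E2F that represses transcription, had a summit at nearly the same base in a pair of libraries, the inhibitor control (476 bp) and RB siRNA (477 bp), inside the higher-coordinate end of the gene (chr11:19224063-19241655). E2F8 is known to be transcribed toward falling coordinates, so this is its 5′ end. The level was 6.51 FPM (3.72 to 10.6, 16 fragments) in the inhibitor control and 3.71 (1.70 to 7.05, 9 fragments) after RB siRNA. Under PD0332991 the interval over the gene, 1.18 Mb wide, had its summit 64.3 kb off with 2.09 FPM (4 fragments), and in the siRNA control the summit was 284 kb off with 1.15 FPM (4 fragments). Both of these bounds were under the lower of the listed levels.

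The log2 ratio at E2F8 was at most -1.64 (-3.67 to -0.0029) for PD0332991 against its control, where the median was 0.20. It rests on 16 against at most 4 fragments, for a summit that was compared because the control listed it. Of the 836 intervals of the PD0332991 list at least as wide as that over E2F8, 118 had no position with more than 4 fragments. For the inhibitor control against the siRNA control the ratio was at least 2.50 (0.87 to 4.54) against a median of 0.59, and 13 of 567 such gene-end summits (2.29%) stood above the bound beyond counting error. This comparison shares the inhibitor control with that of PD0332991, and both ratios rest on the same 16 fragments and the same choice of the summit. In the opposite direction 3.69% of the unpaired summits of the siRNA control did, with no member among them. For RB siRNA against its control the ratio was at least 1.69 (-0.15 to 3.84), which did not exclude the median of 0.45, and at 3.71 FPM the summit was under the minimum of 5 FPM for the shares given here. Of the unpaired gene-end summits past that minimum, 1.6% of those of RB siRNA and 0.763% of those of its control stood above the bound beyond counting error.

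**Figure D4:**
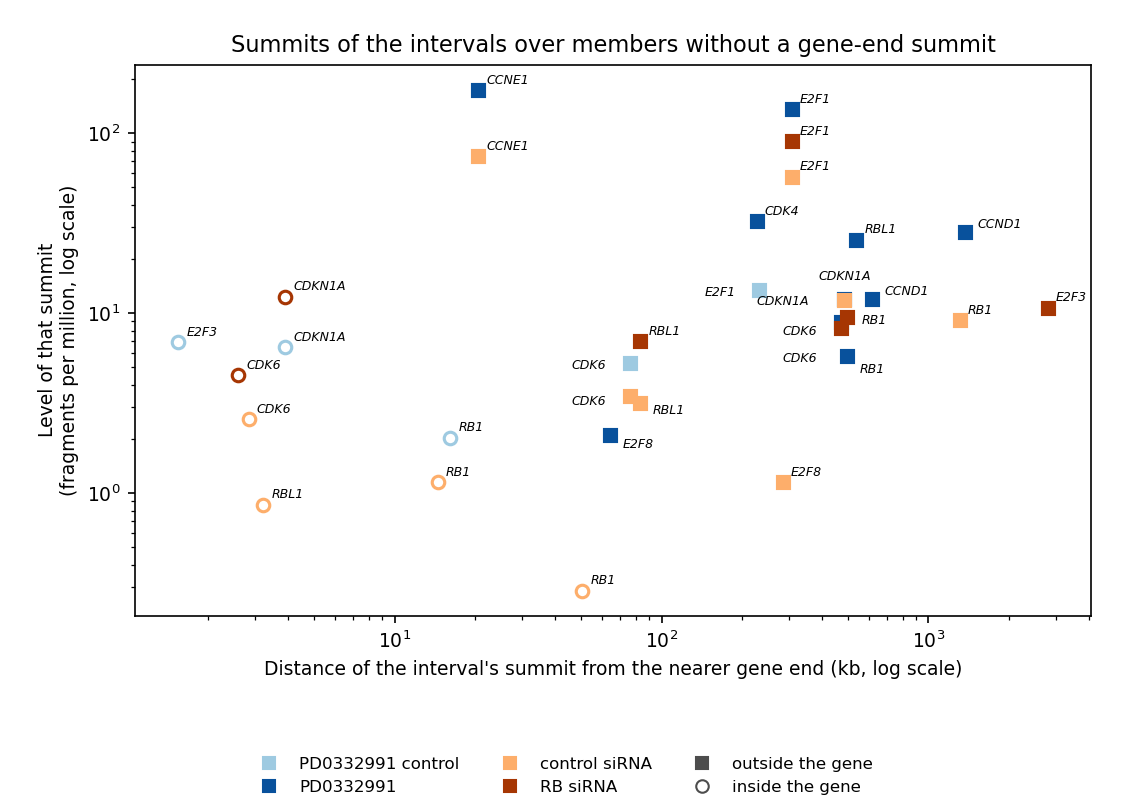
Level (FPM, log axis) and distance from the nearer gene end (kb, log axis) of the summit of each interval that lies over a member without a gene-end summit. Squares are summits outside the gene and open circles summits inside it, coloured by library; intervals over E2F8 and RB1 had summits as low as 1.15 and 0.287 FPM, and those over E2F1 and CCNE1 reached 136 and 174.

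Of the members' gene-end summits, only those of CDK4 and CCND1 were shared by the RB siRNA library and its control, and neither lay beyond counting error, where 13.4% of all shared summits did (7.61% above the median and 5.74% below it) and 9.34% of the shared gene-end summits. For CCND1 the log2 ratio was 0.52 (-0.48 to 1.52) against the median of 0.45. No member had a gene-end summit shared by PD0332991 and its control, where 16.8% of shared summits lay beyond counting error (9.36% above and 7.44% below), and 12.6% of those at gene ends. Between the controls both were shared again and within counting error, with 1.11 (0.23 to 2.03) at CCND1, where 20.4% of shared summits lay beyond it (11.9% above and 8.48% below), and 15.3% of those at gene ends. By level in the 3 libraries where CDK4 was listed, the genes most like it among 760 were PC, PCNX3 and CLEC11A, with root mean square differences of 0.11, 0.13 and 0.15 on the log2 scale. Those most like CCND1 were GK (0.09), EARS2 and UBFD1 (0.15 each).

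Among 34 other genes of the pathway, 9 had a gene-end summit in the inhibitor control, 4 under PD0332991, 8 in that of the siRNA and 5 with RB siRNA. These are 26.5%, 11.8%, 23.5% and 14.7% of the list, beside the shares of all genes given above. In at least 1 library 17 of the 34 had one, where 27.2% of all protein-coding genes did. Of the 6 other CDK inhibitors 5 had one, of the 7 other cyclins, CDKs and CDC25A 2, of the 7 other E2F and DP genes 2, of the 7 genes of the MuvB complex and its partners 2, of the 6 ubiquitin ligases and other regulators 5, and the 1 other pocket protein gene had one too. LIN52, a subunit of the MuvB complex that joins RBL1 and its relative RBL2 in the DREAM repressor, had a summit in all 4 libraries, at an end it shares with ALDH6A1. Its level was 26.8 FPM in the inhibitor control, 24.1 under PD0332991, 15.7 after RB siRNA and 13.8 in the siRNA control. FBXO5, which encodes EMI1, an inhibitor of the anaphase-promoting complex, had 16.3, 13.6, 12.0 and 11.5 FPM in the same order. Neither gene lay beyond counting error in any of the 3 comparisons: for PD0332991 the log2 ratios were -0.16 (-0.73 to 0.41) at LIN52 and -0.26 (-1.03 to 0.49) at FBXO5. FBXW7, at an end shared with MIR4453HG and part of the ubiquitin ligase that degrades cyclin E, had 14.1 FPM under PD0332991, 14.0 after RB siRNA and 8.62 in the siRNA control, with a ratio of 0.70 (-0.05 to 1.46) for RB siRNA. CCNF, of another ubiquitin ligase, was listed at 9.76 FPM in the inhibitor control and at 5.75 in that of the siRNA.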

How the data were processed

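CUT&Tag intervals of 4 libraries of 22RV1 cells, 1 per group, were used, with groups taken from the genotype labels. Per the submitters' processing notes, bcl2fastq 2.17, Trimmomatic 0.33, Bowtie2 (version given as 2) and MACS2 2.1.0 were used with hg38; order and settings were not given in the sources used here. The deposited score follows the −log10 p of the interval, rounded down after multiplication by 10. In the deposited fold the authors compare treatment with background at the summit, a ratio, with the −log10 p and −log10 q of the same summit as the authors gave them. Interval and summit positions are those the authors deposited.

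Fragments at each summit were solved from fold and −log10 p, assuming the MACS2 pseudocount of 1, its Poisson upper tail, a large window of 10000 bp and a genome size of 2.7 Gb, which sets the totals but not the ratios of libraries. Single-end peak calling was assumed. Were it paired-end, each library's totals and FPM, and so the unscaled log2 ratios, would shift by a factor of that library, whereas ratios relative to the median would not. At the genome-wide background 100% of values were whole within 0.05 in each library. The recovery was tried on lists simulated with these same assumptions, so that trial cannot check the assumptions. The calls were tried on counts simulated with counting error alone, without variation between libraries. Summits of a pair of libraries, nearest to each other within 250 bp and of 5 FPM or more by geometric mean, were shared. Their ratios carry exact conditional 95% intervals, and a summit lay beyond counting error where that interval excluded the median ratio of the pair. Python 3.11.15 and SciPy 1.17.1 were used. The members, lists and rules were chosen with earlier results of these data known. All 10 members are named, with other pathway genes that had a gene-end summit in at least 2 libraries and the 3 genes most like a member listed in at least 3; genes at hiding summits are named as the files place them. Other windows, minimum levels, matching distances and scalings were tried. Some items are not reported here.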

Additional observations from a re-analysis of the deposited data

How the results depend on the processing

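No paired analysis was possible because each group held 1 library, and no library could be left out of a comparison. Taking the whole gene with a margin of 5000 bp, 8 members of the inhibitor control, 1 of PD0332991, 6 of the siRNA control and 6 of RB siRNA had a summit, in place of 5, 1, 3 and 4. Of all protein-coding genes 29.9%, 12.7%, 30.2% and 10.8% had a summit by this setting, in the same order, so the share rose for genes at large too. Counting every annotated start, an alternative chosen after seeing the data, gave 6, 1, 4 and 5 members (inhibitor control, PD0332991, siRNA control, RB siRNA). The share of all genes was not counted for this alternative. Limited to gene ends, shared summits beyond counting error numbered 76 for PD0332991, 47 for RB siRNA and 123 between the controls, in place of 149, 100 and 243, which are 12.6%, 9.34% and 15.3% of the gene-end summits tested in place of 16.8%, 13.4% and 20.4% of all shared summits; the cause was not tested. Scaled to the median ratio, the log2 ratio of CDK4 was -0.20 for RB siRNA and -0.10 between the controls. The remaining 45 alternative values moved by less than their interval or by at most 1.5 times. The q filter removed no interval, since the median −log10 q of each list was 0. Depth limits precision: gene-end summits of members other than CDK4 had 29 fragments or fewer.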
